A study of Mus musculus with 7 samples.

Results

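The genes described here encode receptors and secreted proteins by which the endothelium of sinusoids clears material from the blood, together with endocytic receptors of wider distribution. They are Stab1, Stab2, Lyve1, Oit3, Mrc1, Gpr182, Dnase1l3, Fcgr2b, Lrp1 and Cd36. All probe sets whose single annotated symbol was among these names were taken, which gave 19 probe sets for the 10 genes, of 45101 probe sets in the table. Sinusoidal endothelial cells line the wide, leaky capillaries of liver, spleen and bone marrow. They bind hyaluronan, modified proteins, immune complexes and glycoproteins at the surface and take them into endosomes through clathrin-coated pits. Stabilins, LYVE-1 and the inhibitory Fc receptor are widely used as markers of this endothelium, while LRP1 and CD36 are also made by fibroblasts, adipocytes and macrophages.

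The mice were wild type C57Bl/6J, young adults of 6 to 12 weeks, and amplified RNA of their sorted marrow cells was measured with 7 Affymetrix Mouse Genome 430 2.0 arrays, 1 per sample. Each sample held 1800 to 10000 sorted cells negative for CD45 and for lineage antigens. The CD54+CD31-BP1+ cells, labelled bone marrow stromal cells, have 4 samples, named stromal 1 to 4 here. The CD54-CD31+ cells, labelled bone marrow endothelial cells, have 3 samples, named endothelial 1 to 3. The labels do not say whether replicates came from separate mice or sorts, so every p measures the spread between these arrays only. Values are log2 expression values as deposited, and differences are stromal minus endothelial, so a negative difference means higher in the endothelial samples. Probe sets above the 40th percentile of the array (5.48 to 5.79) in 3 or more samples were tested. A tested probe set was called if limma's adjusted p, over all probe sets tested, was under 0.05 and the log2 difference was at least 1. In bulk samples, fewer cells of a type and less RNA per cell cannot be told apart.

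The endothelial label was only partly met by its marker genes, and transcripts of blood lineages were present on arrays of both populations. Of all genes tested, each by its brightest probe set, 16.0% were called higher in the endothelial and 30.5% in the stromal samples. Of 18 pan-endothelial genes 12 were tested, and 6 were called higher in the endothelial samples and 0 in the stromal samples. The 6 were Vwf (-7.37), Esam (-5.01), Plvap (-3.58), Pecam1 (-3.48), Kdr (-2.08) and Flt1 (-1.02). Pecam1 encodes CD31, by which the cells were sorted, so its call follows the sort. Another 5 of the 18 lay below the 40th percentile in all 3 endothelial samples, namely Cdh5, Emcn, Tek, Tie1 and Sox17. The mean of that list was 7.27 to 7.39 in the endothelial and 5.58 to 5.71 in the stromal samples. Vwf and Esam, with the largest differences, move that mean most, and Eng went the other way (0.93). All 10 megakaryocyte and platelet genes tested were called higher in the endothelial samples, with list means of 13.42 to 13.80 against 5.82 to 8.40. The macrophage list had means of 6.63 to 7.06 against 5.75 to 6.27, with 4 of 9 genes tested called higher in the endothelial samples (Lyz2 at -4.29, Mpeg1 at -2.52, Csf1r at -2.19 and Cd68 at -1.28) and 2 in the stromal samples (Mertk at 3.33 and Cd14 at 1.18). Of its 15 genes, Cd163, C1qb, C1qc, Timd4, Vsig4 and Spic lay below the 40th percentile on all arrays. B-lineage genes stood highest in endothelial 2 (list mean 9.19, against 7.48 and 7.59 in endothelial 1 and 3 and 6.38 to 7.16 in the stromal samples). The neutrophil precursor list lay at 11.26, 11.99 and 9.14 in endothelial 1 to 3 and at 9.63, 9.48, 7.55 and 8.10 in stromal 1 to 4. The erythroid list lay at 6.98 to 8.74 against 5.94 to 7.38, and the dendritic and mast cell list at 6.95 to 7.34 against 5.39 to 5.82. Among the stromal samples the megakaryocyte and platelet list was highest in stromal 4 (8.40). The part of these other cells in the pan-endothelial calls above, including those of Vwf and Esam, and in the values below was not tested.

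**Figure D1:**
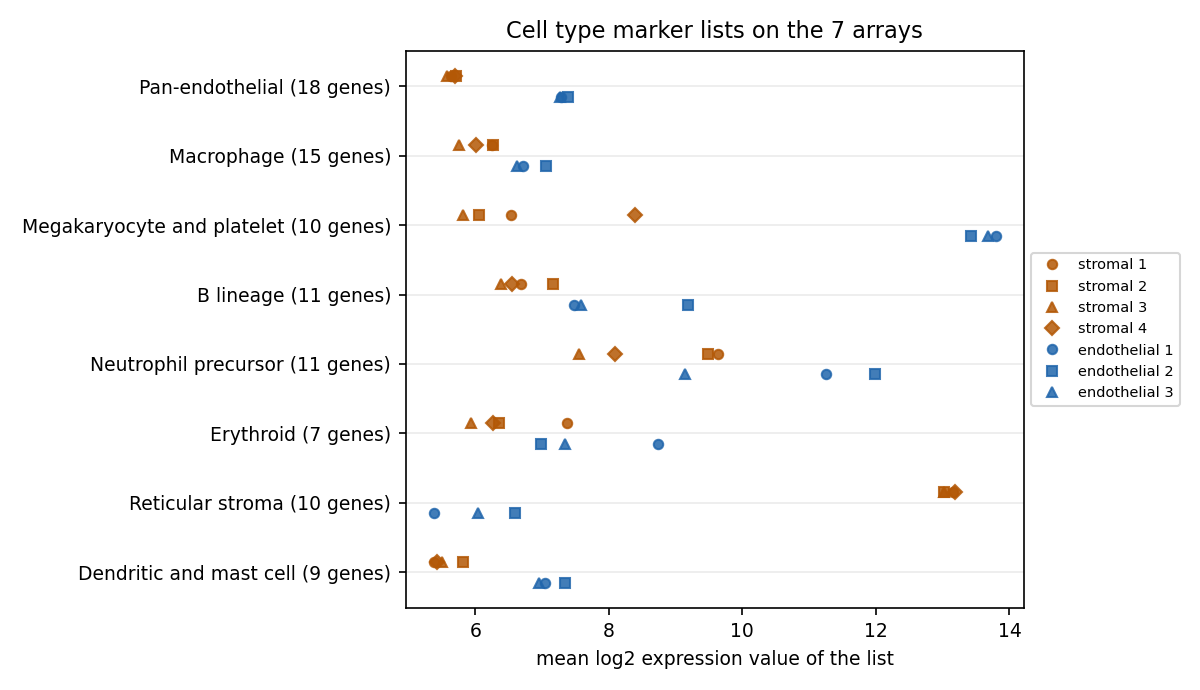
Mean log2 expression value of 8 cell type marker lists on each array (horizontal axis), with the number of genes in each list in brackets; orange symbols are the 4 stromal samples and blue symbols the 3 endothelial samples. The reticular stroma list lies at 13.02 to 13.18 in the stromal samples, and the megakaryocyte and platelet list at 13.42 to 13.80 in the endothelial samples.

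The members did not move as a block. Lyve1 and Oit3 were higher in the endothelial samples at every probe set, Lrp1 was higher in the stromal samples at both of its probe sets, and Fcgr2b was higher in the endothelial samples at some of its probe sets. Stab1, Stab2 and Gpr182 were tested and not called. Mrc1, Cd36 and Dnase1l3 lay below the filter at all of their probe sets. Of the 19 probe sets 12 were tested and 7 were not. Of the 12, 5 were called higher in the endothelial and 2 in the stromal samples, and 5 were not called. Over all 29438 probe sets tested, 14.6% were called higher in the endothelial and 26.0% in the stromal samples. Calls are thus common in this comparison, and a call by itself sets no member apart. Of the 12 tested, every endothelial sample lay above every stromal sample in 7, beside 31.4% of all probe sets tested, and the reverse held in 2, beside 30.3%. Of all calls 64.1% were toward the stromal samples, and 51.9% after a repeated quantile normalization, which moved the median difference of all probe sets tested from 0.07 to -0.13. Then 6 member probe sets were called toward the endothelial and 2 toward the stromal side.

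**Figure D2:**
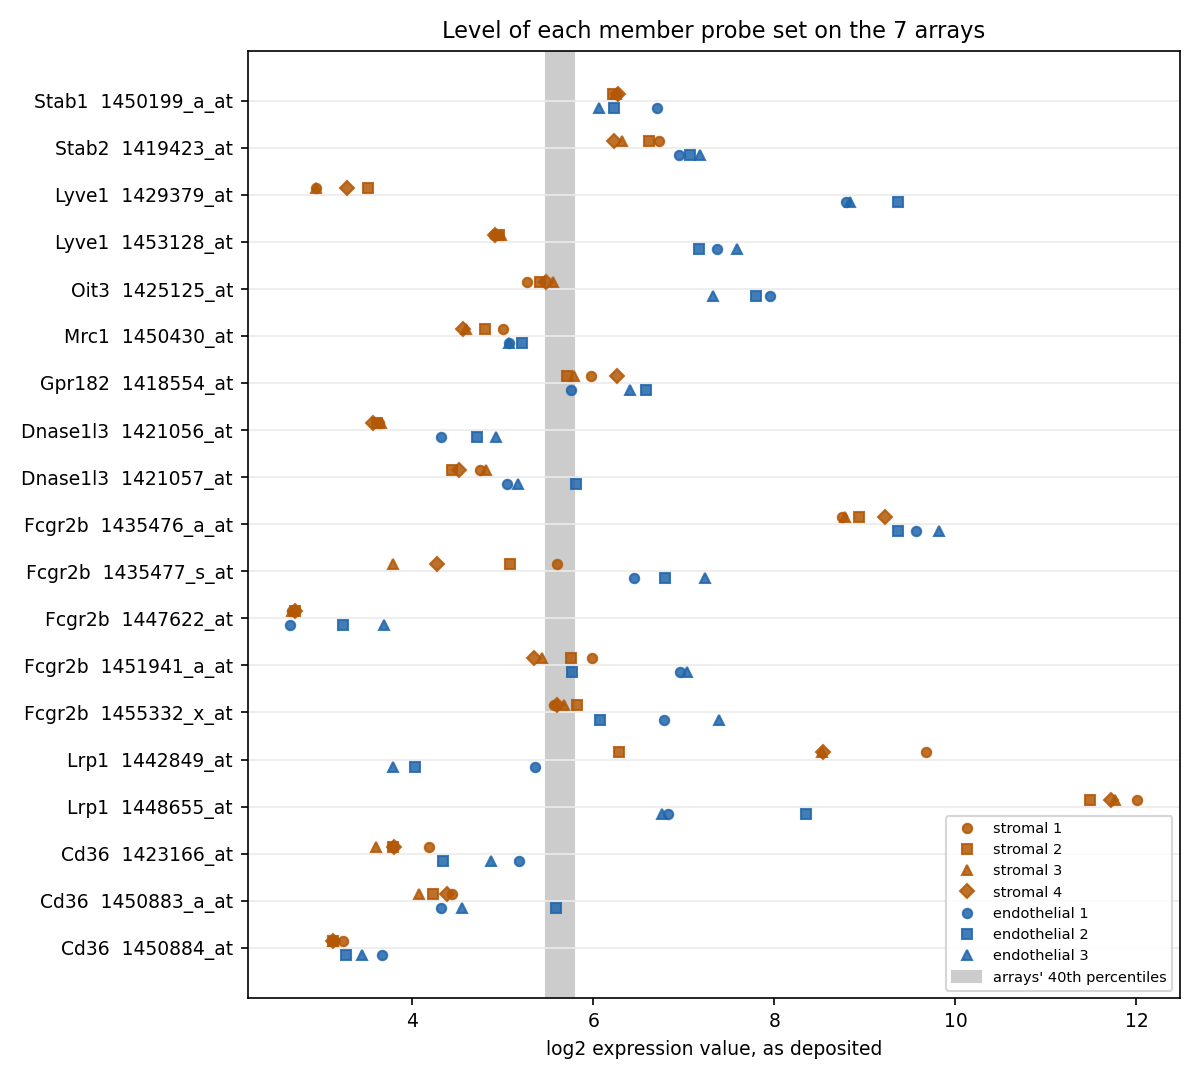
Log2 expression value (horizontal axis) of the 19 probe sets on each of the 4 stromal samples (orange) and 3 endothelial samples (blue), with the range of the arrays' 40th percentiles, 5.48 to 5.79, shaded. The populations are far apart at Lyve1 1429379_at and Lrp1 1448655_at, and all points of Mrc1 and of 1 Dnase1l3 probe set lie to the left of the shading.

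Lyve1 encodes a membrane receptor for hyaluronan that is found on lymphatic and sinusoidal endothelium. At probe set 1429379_at it lay at 8.79, 9.37 and 8.84 in endothelial 1 to 3, and at 2.94, 3.51, 2.94 and 3.28 in stromal 1 to 4. These endothelial values stood between the 87.4th and 89.6th percentile of their arrays, and the stromal values between the 1.3rd and the 6.5th. The difference was -5.83 (95% confidence interval -6.37 to -5.29, limma adjusted p = 9.44e-07). At probe set 1453128_at Lyve1 lay at 7.37, 7.17 and 7.59 in the endothelial and at 4.90, 4.96, 4.98 and 4.91 in the stromal samples. All 3 endothelial samples were again above all 4 stromal samples, with a difference of -2.44 (-2.83 to -2.04, adjusted p = 1.49e-05). The platform annotation gives the same source sequence for these probe sets, and their differences are unlike in size. In the stromal samples both lay below the 40th percentile, so the floor of each probe set enters its difference and no fold is given.

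Oit3 encodes a secreted protein with a zona pellucida domain, known from the liver. It lay at 7.95, 7.80 and 7.32 in endothelial 1 to 3, and at 5.27, 5.41, 5.55 and 5.48 in stromal 1 to 4. The populations did not overlap, and the stromal values sat at the 36.0th to 40.5th percentile. The difference was -2.26 (-2.73 to -1.79, adjusted p = 5.93e-05). Lyve1 and Oit3 were called under all of the alternatives that tested them. The Oit3 difference there ranged from -2.52 to -2.07.

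Stabilins are large scavenger receptors that bind hyaluronan, modified lipoproteins and collagen propeptides. Stab2, the hyaluronan-clearing receptor of sinusoids, lay at 6.95, 7.07 and 7.18 in the endothelial and at 6.73, 6.62, 6.32 and 6.23 in the stromal samples. The groups did not overlap, but the difference of -0.59 (-1.04 to -0.15, adjusted p = 0.0278), a 1.51-fold higher level in the endothelial samples, did not reach the size required for a call. In rank, Stab2 stood at the 68.5th to 71.3rd percentile of the endothelial and the 53.4th to 60th of the stromal samples. Over 21 alternatives the Stab2 difference ranged from -0.85 to -0.48, and it was called in 1, with the adjusted p alone. Its limma adjusted p was 0.00649 after a repeated quantile normalization. That p was 0.0653 with array weights, 0.0661 without endothelial 3 and 0.144 with the replicate number as a block. Stab1, which is also made by alternatively activated macrophages, lay at 6.70, 6.23 and 6.06 in the endothelial and at 6.25, 6.22, 6.25 and 6.27 in the stromal samples. Its populations overlapped and its difference was -0.08 (-0.54 to 0.37, adjusted p = 0.733), an interval that lies within the size required for a call. The Stab1 difference was 0.10 without endothelial 1, -0.22 without endothelial 3 and 0.17 after cyclic loess. Where endothelial 1 alone stood for its population, it was -0.45 (adjusted p = 0.0732).

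Gpr182 encodes a G protein-coupled receptor of sinusoidal and lymphatic endothelium that takes up chemokines. It lay at 5.75, 6.58 and 6.40 in the endothelial and at 5.98, 5.71, 5.79 and 6.26 in the stromal samples. The populations overlapped, and the difference was -0.31 (-0.89 to 0.28, adjusted p = 0.315). The Gpr182 difference was -0.56 without endothelial 1 (adjusted p = 0.0651) and -0.14 without endothelial 2. It was 0.04 after cyclic loess, and 0.19 where endothelial 1 alone stood for its population. Mrc1, the mannose receptor of macrophages and sinusoids, lay at 5.07, 5.21 and 5.07 in the endothelial and at 5.0, 4.80, 4.59 and 4.56 in the stromal samples. By log2 value the groups did not overlap, with a difference of -0.38, but by rank within the array they did, at percentiles of 24.0 to 29.3 against 21.8 to 31.2.

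**Figure D3:**
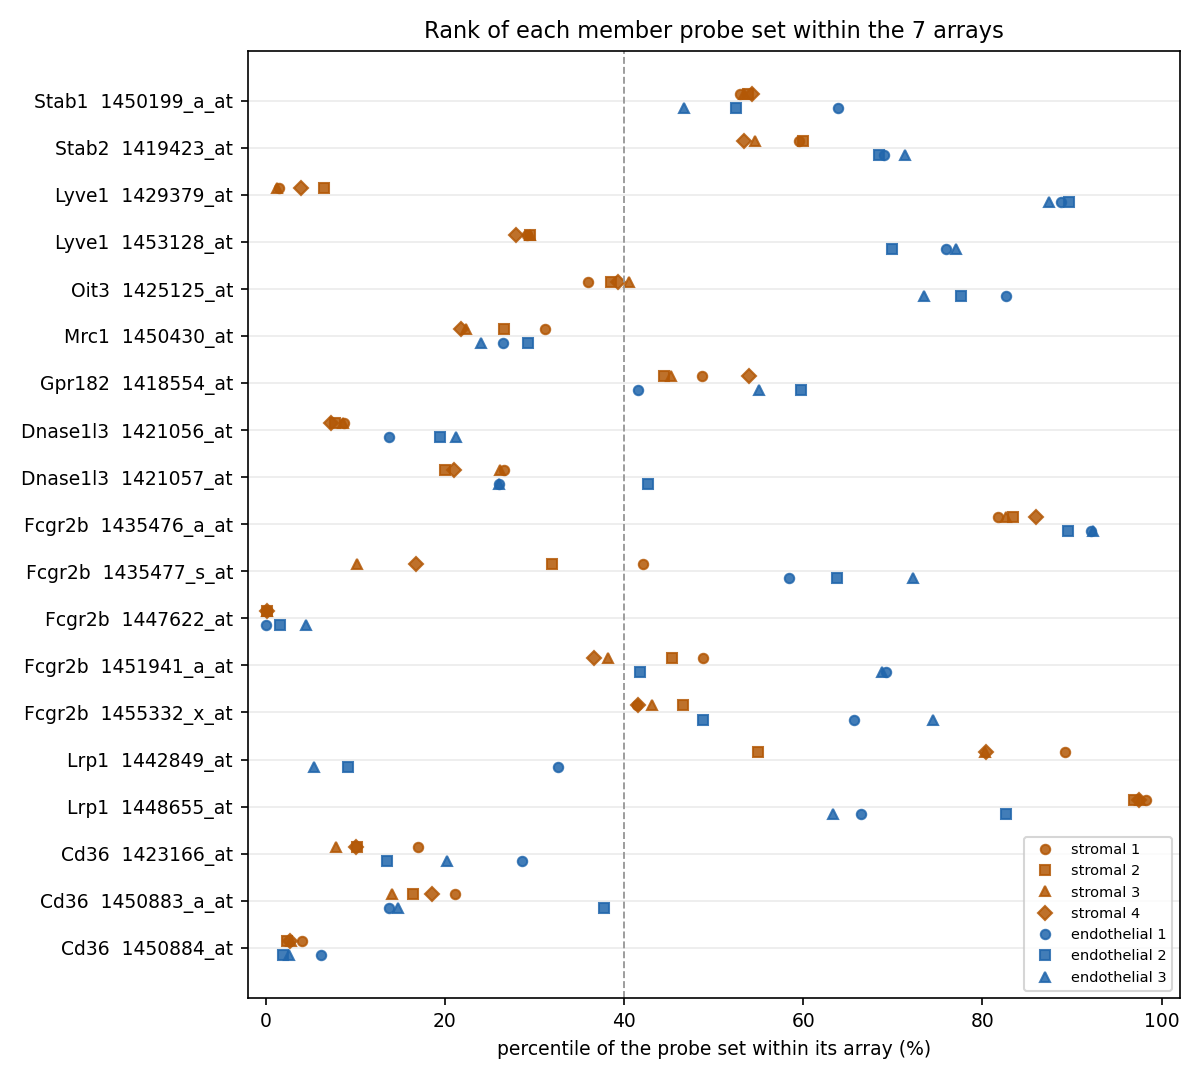
Percentile of each of the 19 probe sets within its array (horizontal axis, %; dashed line at 40) on the 4 stromal samples (orange) and 3 endothelial samples (blue). Lyve1, Oit3 and Stab2 keep apart in rank, whereas Mrc1 and the Cd36 probe sets overlap.

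Dnase1l3, which encodes a secreted enzyme that degrades chromatin DNA, was below the filter at both probe sets. At 1421056_at it lay at 4.32, 4.72 and 4.93 in the endothelial and at 3.63, 3.61, 3.66 and 3.57 in the stromal samples, a difference of -1.04. These populations were apart in log2 value and in rank, at percentiles of 13.8 to 21.2 against 7.3 to 8.8. Without the filter limma's adjusted p of that difference was 0.00229. All 7 arrays lay below their 40th percentile there, and probe sets below the filter had a median difference of -0.50. That p does not set this general shift apart from a difference of Dnase1l3. At 1421057_at the values were 5.05, 5.81 and 5.17 against 4.75, 4.44, 4.81 and 4.52, and the ranks overlapped. Only endothelial 2 lay above its 40th percentile there.

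Cd36 encodes a receptor for long-chain fatty acids, thrombospondin and oxidised lipoproteins that is also carried by platelets. None of its 3 probe sets passed the filter. At 1423166_at it lay at 5.18, 4.34 and 4.87 in the endothelial and at 4.19, 3.79, 3.60 and 3.80 in the stromal samples, a difference of -0.95. At 1450883_a_at and 1450884_at the differences were -0.54 and -0.30, and the values lay between 4.07 and 5.59 and between 3.12 and 3.67. The Cd36 ranks of the populations overlapped at all 3 probe sets. Such small negative differences were general among dim probe sets. The median difference of the 15599 probe sets below the filter was -0.50, and that of the 7 member probe sets below it was -0.54. Every endothelial array lay above every stromal array in 5 of these 7 by log2 value, beside 56.2% of all probe sets below the filter, but in 1 of 7 by rank, beside 26.0% of them. The values of Mrc1 and Cd36 are therefore given as levels, with no direction.

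Fcgr2b encodes the inhibitory receptor for IgG that clears immune complexes in sinusoids and restrains B cells. Its 5 probe sets gave unlike readings. At 1435477_s_at Fcgr2b lay at 6.45, 6.79 and 7.23 in the endothelial and at 5.60, 5.08, 3.79 and 4.27 in the stromal samples. The stromal samples spread widely but stayed below the endothelial ones, and the difference was -2.14 (-3.15 to -1.13, adjusted p = 0.00416). At 1455332_x_at the values were 6.78, 6.07 and 7.39 against 5.57, 5.82, 5.68 and 5.60, a 2.11-fold higher level in the endothelial samples (difference -1.08, -1.77 to -0.39, adjusted p = 0.0152). That call was lost with the replicate number as a block (difference -1.06, adjusted p = 0.0585), without endothelial 3 (-0.76) and after cyclic loess (-0.75).

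The brightest Fcgr2b probe set, 1435476_a_at, lay at 9.56, 9.37 and 9.82 in the endothelial and at 8.75, 8.94, 8.78 and 9.22 in the stromal samples. Its groups did not overlap, and its difference of -0.66 (-1.12 to -0.20, adjusted p = 0.0223) was under the size required. After a repeated quantile normalization it was -1.20 (adjusted p = 0.00296) and after cyclic loess -1.26 (adjusted p = 0.00315), and both were called. At 1451941_a_at Fcgr2b stood at 6.96, 5.76 and 7.04 against 5.99, 5.75, 5.43 and 5.35. There endothelial 2 lay among the stromal samples. The difference was -0.96 (-1.75 to -0.17, adjusted p = 0.0408) and -1.37 without endothelial 2. At 1447622_at all values were between 2.65 and 3.69, below the filter. Suffixes with s, x or a mark probe sets that can also bind other transcripts or transcript variants, and Fcgr2b shares sequence with its neighbour receptor Fcgr3. How much signal comes from such transcripts was not tested. Fcgr3 itself, an activating receptor, lay at 7.67, 9.98 and 7.49 in the endothelial and at 6.91, 6.47, 5.28 and 5.48 in the stromal samples.

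Lrp1 encodes a very large endocytic receptor of the LDL receptor family for protease-inhibitor complexes, apolipoprotein E and many other ligands. At 1448655_at it lay at 12.01, 11.49, 11.76 and 11.72 in stromal 1 to 4, and at 6.82, 8.35 and 6.76 in endothelial 1 to 3. The populations were far apart, with the stromal values at the 96.9th to 98.2nd percentile. Lrp1 was 21.6-fold higher in the stromal samples (difference 4.44, 3.53 to 5.34, adjusted p = 5.25e-05). Endothelial 2, which had the highest Lrp1 level of its group, also had the highest mean of the reticular stroma list among the endothelial samples (6.60, against 5.38 and 6.04). By gene, 6 of the 10 on that list were highest in endothelial 2, while Ebf3 and Adipoq were lowest there and Kitl and Foxc1 were highest in endothelial 3. Pdgfrb lay at 2.93 in endothelial 1 against 8.94 and 8.72, which moves the list mean. The part of carried-over stromal RNA was not tested. At 1442849_at Lrp1 lay at 9.67, 6.28, 8.53 and 8.54 in the stromal and at 5.36, 4.03 and 3.79 in the endothelial samples. Stromal 2 was the lowest of its group but above all endothelial samples, and the difference was 3.86 (2.11 to 5.62, adjusted p = 0.00355). The endothelial values of this probe set lay below the 40th percentile.

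**Figure D4:**
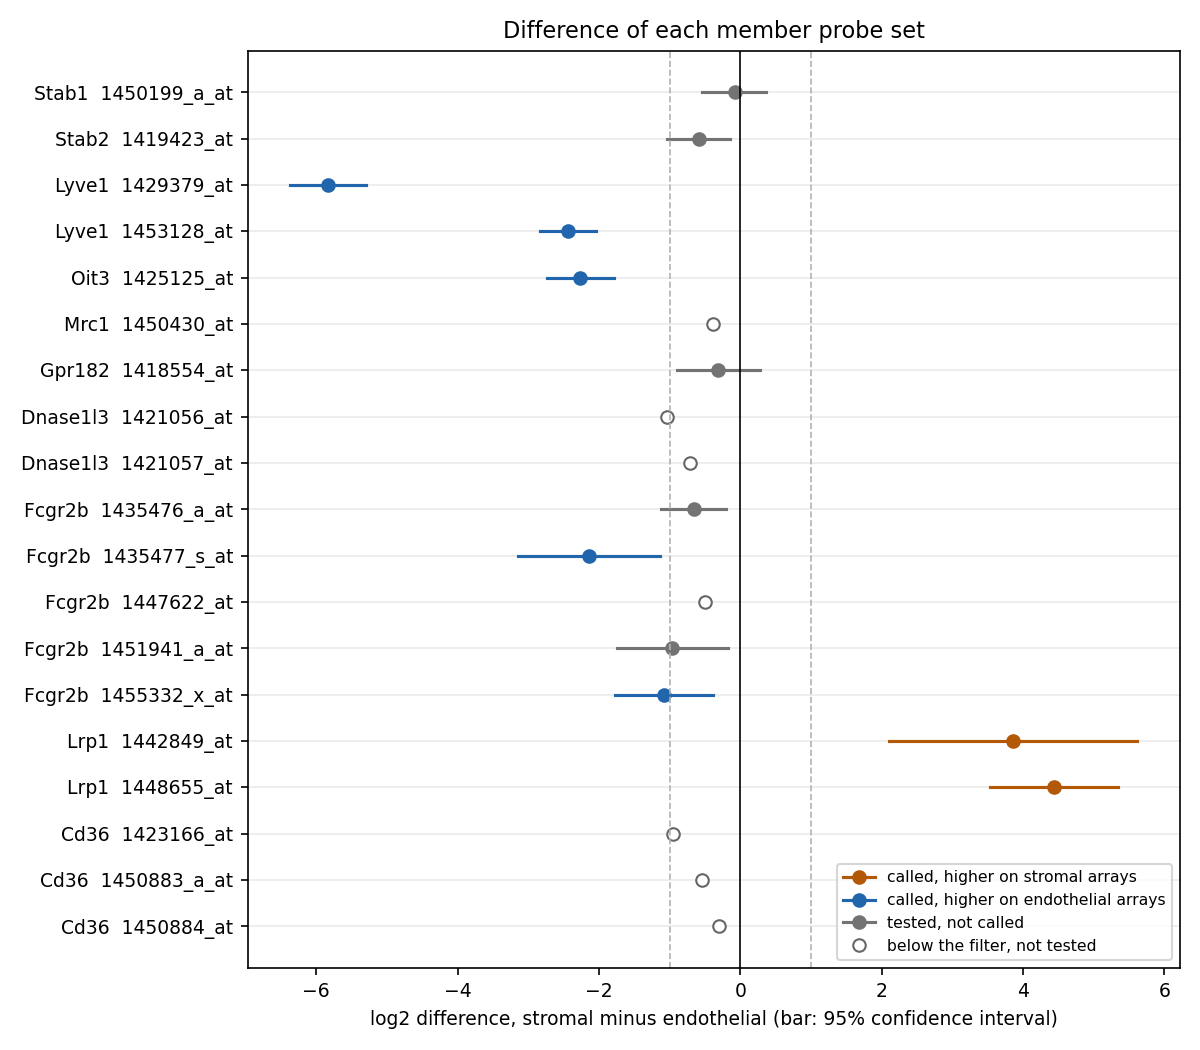
Log2 difference, stromal minus endothelial (horizontal axis), of the 19 probe sets; bars are 95% confidence intervals from limma, filled points were tested, open points lay below the filter, and dashed lines mark a difference of 1 in either direction. Lyve1, Oit3 and 2 of 5 Fcgr2b probe sets are called to the left, and both Lrp1 probe sets to the right.

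Endothelial 2 and 3 had higher hybridisation controls, which report spiked-in label, than the other 5 arrays (means of 11.33 and 11.37 against 9.51 to 9.75). Within the 5 arrays of like level, endothelial 1 alone stands for its population and is assumed to vary like the others. There the differences were -5.62 and -2.43 at the Lyve1 probe sets (adjusted p = 7.12e-05 and 0.000223) and -2.52 for Oit3 (adjusted p = 0.00029). For Lrp1 they were 4.93 at 1448655_at (adjusted p = 6.81e-05) and 2.90 at 1442849_at, where the call was lost (adjusted p = 0.0738). For Fcgr2b they were -1.77 at 1435477_s_at, where the call was lost (adjusted p = 0.0649), -1.12 at 1455332_x_at (adjusted p = 0.00518) and -1.33 at 1451941_a_at, which then passed (adjusted p = 0.0113). The level of the controls as a block gave the same differences, and the call at 1455332_x_at was then lost as well (adjusted p = 0.0922), while 1451941_a_at was not called (adjusted p = 0.0692).

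Of the 10 genes, Oit3, Stab2, Lrp1 and Gpr182 are on chromosome 10 in the RefSeq gene table. Lrp1 and Gpr182 are separated there by 6 protein-coding genes, yet Lrp1 was called higher in the stromal samples and Gpr182 was not called. RefSeq sequence of the 250 bases before the gene start was at hand for Stab1, Stab2, Mrc1, Fcgr2b, Lrp1 and Cd36 (mouse build GRCm38.p6). Those of Lrp1, the member called toward the stromal samples, and of Stab2 and Fcgr2b, whose groups did not overlap in the other direction at the brightest probe set, are shown to compare their base composition. They are printed 5′ to 3′ on the gene's strand, which is the minus strand for all 3, with CG dinucleotides in capitals. They lie at chr10:127621149-127621398 for Lrp1, chr10:87007943-87008192 for Stab2 and chr1:170976072-170976321 for Fcgr2b.
Lrp1: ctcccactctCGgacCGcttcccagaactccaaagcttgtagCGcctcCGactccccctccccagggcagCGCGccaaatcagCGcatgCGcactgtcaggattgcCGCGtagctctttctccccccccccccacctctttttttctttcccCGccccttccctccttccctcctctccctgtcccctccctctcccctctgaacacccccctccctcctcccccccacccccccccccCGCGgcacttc
Stab2: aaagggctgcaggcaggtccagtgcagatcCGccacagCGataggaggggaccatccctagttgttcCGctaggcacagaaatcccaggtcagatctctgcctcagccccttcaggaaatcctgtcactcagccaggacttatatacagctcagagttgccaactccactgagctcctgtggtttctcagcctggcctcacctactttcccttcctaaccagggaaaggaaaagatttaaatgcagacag
Fcgr2b: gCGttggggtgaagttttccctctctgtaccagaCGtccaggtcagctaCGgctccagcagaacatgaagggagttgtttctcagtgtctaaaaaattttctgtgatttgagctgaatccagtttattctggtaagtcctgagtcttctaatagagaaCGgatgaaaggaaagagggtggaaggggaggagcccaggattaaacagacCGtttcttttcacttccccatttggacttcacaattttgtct

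The Lrp1 window held 13 CG dinucleotides and 67.2% G and C, and 68.5% of the 32851 windows in the table held fewer. The Stab2 window held 3 (53.2% G and C) and the Fcgr2b window 5 (45.2%). The windows of Mrc1, Cd36 and Stab1 held 3, 3 and 5, beside a median of 6 over all windows. Motifs were searched on both strands. AGATAA, a form of the GATA factor motif, was in 0 of the 6 windows and in 10.0% of all windows. CGGAAG, an ETS factor core, was in that of Stab1 and in 13.6% of all. GGGCGG, the GC box, was in those of Mrc1, Lrp1 and Cd36 and in 32.7% of all. A match is a description of the letters and shows no binding.

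Among 165 related genes on the array, chosen for their part in scavenging and endocytosis, 144 were tested by the brightest probe set. Of these 52 (36.1%) were called higher in the stromal and 33 (22.9%) in the endothelial samples, beside 30.5% and 16.0% of all genes tested. Their median difference was 0.19, the same as that of all genes tested. In 14 of the 52 related genes named for the size of their difference, the dimmer population lay above the 40th percentile in at most 1 sample. There the floor of the probe set enters the size of the difference. These are Scara3, Colec12, Scara5, Olr1, Lrp4, Lrp12, Gulp1, Clec4g, Vcan, Tnfaip6, Hip1, Necap1, Vcam1 and Rspo3.

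Of 14 scavenger receptor genes tested, 6 were called higher in the stromal samples and 4 in the endothelial samples, with a median of 1.28. Scara3 (difference 7.49), Colec12 (4.95), a collectin that binds oxidised lipoprotein, and Scara5 (4.58), a ferritin receptor, were higher in the stromal samples. Olr1 (-3.43), the oxidised LDL receptor LOX-1, and Pear1 (-2.22), a platelet and endothelial aggregation receptor, were higher in the endothelial samples. On the list for the LDL receptor family, to which Lrp1 belongs, 5 of 12 were called higher in the stromal samples, including Lrp4 (4.31), Lrp12 (1.93) and Lrp6 (1.75). Another 3 were called higher in the endothelial samples, including Lrp8 (-2.30) and Sort1 (-2.17), and the median was -0.04. Sort1 is on that list as a sorting receptor gene and is not a member of the family.

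Genes for the chaperone, adaptors and ligands of LRP1 were called higher in the stromal samples in 8 of 11 tested and higher in the endothelial samples in 0, with a median of 2.14. Apoe, which encodes an LRP1 ligand, lay at 13.32 to 13.51 in the stromal samples and at 5.91, 5.90 and 7.78 in the endothelial samples (difference 6.87). Gulp1, an engulfment adaptor, was higher by 4.95 and Dab2, a clathrin adaptor, by 4.19. In the mannose receptor and lectin list 3 of 9 were called in each direction, with a median of -0.76. Cd302 (6.63), Mrc2 (5.14), which encodes the collagen-binding relative of the mannose receptor, and Pla2r1 (2.40) were higher in the stromal samples. Clec4g, which encodes the lectin LSECtin of liver and lymph node sinusoids, lay at 11.78, 11.39 and 11.06 in the endothelial and at 4.70 to 5.28 in the stromal samples. Its difference was -6.34 (adjusted p = 6.85e-07), and Clec7a, a receptor for beta-glucan, stood at -2.80.

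Fc receptor genes and their partners, which signal with or against Fcgr2b, were called higher in the endothelial samples in 8 of 13 tested and in the stromal samples in 2, with a median of -1.70. Inpp5d, which encodes the phosphatase SHIP1 that acts downstream of Fcgr2b, stood at -5.22, Syk at -4.84 and the activating chain gene Fcer1g at -4.22. Fcgrt, the recycling receptor of IgG, was higher in the stromal samples by 4.25 and Inppl1 by 2.05. Among hyaluronan genes 4 of 10 were called higher in the stromal and 2 in the endothelial samples, with a median of -0.69. Cd44, the main hyaluronan receptor of blood cells, stood at -2.96 and Cemip at -1.30, while Cemip2 (3.03), Vcan (2.50) and Tnfaip6 (2.21) were higher in the stromal samples. Of 4 deoxyribonuclease genes tested, Dnase1l1 was called higher in the endothelial samples (-1.80).

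Genes listed beside Cd36 for fatty acid uptake, its regulation and storage were called higher in the stromal samples in 6 of 13. Lpl (7.04), Angptl4 (5.46) and Pparg (4.11) led these, while Thbs1, which encodes a CD36 ligand stored in platelets, stood at -3.37. The median of the 13 was 1.01. Chemokine scavenging and adrenomedullin receptor genes, with Adm, the gene of adrenomedullin itself, were set beside Gpr182. Of 9 tested, 2 were called higher in the stromal samples (Ramp2 at 2.66 and Adm at 2.22). Another 3 were called higher in the endothelial samples (Ramp1 at -2.81, Ackr2 at -1.31 and Ccrl2 at -1.12), and the median of the 9 was -0.27. Of 23 genes for the machinery of clathrin-coated pits, beside the 30.5% and 16.0% of all genes, 4 were called higher in the stromal samples, including Hip1 (3.61), Necap1 (2.84) and Epn2 (2.18), and 4 in the endothelial samples, including Bin1 (-3.05) and Ap2m1 (-1.66), with a median of 0.02. Of 8 caveolar genes, Ehd2 (3.01), Cavin3 (2.74) and Cav2 (1.40) were higher in the stromal samples and Cavin2, at -4.39, in the endothelial samples, with a median of 0.39. Other genes reported from sinusoidal endothelium were called higher in the stromal samples in 9 of 18, including Vcam1 (7.56), Bmp6 (7.26) and Rspo3 (7.23). Vcam1 is also on the reticular stroma list. Icam1, another of the 9, encodes CD54, by which the cells were sorted, so its call follows the sort. The 3 called higher in the endothelial samples were Plxnc1 (-1.61), Bmp2 (-1.29) and Fcnb (-1.16). Fcnb is also on the neutrophil precursor list, and its populations overlapped. The median of the 18 was 1.68.

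**Figure D5:**
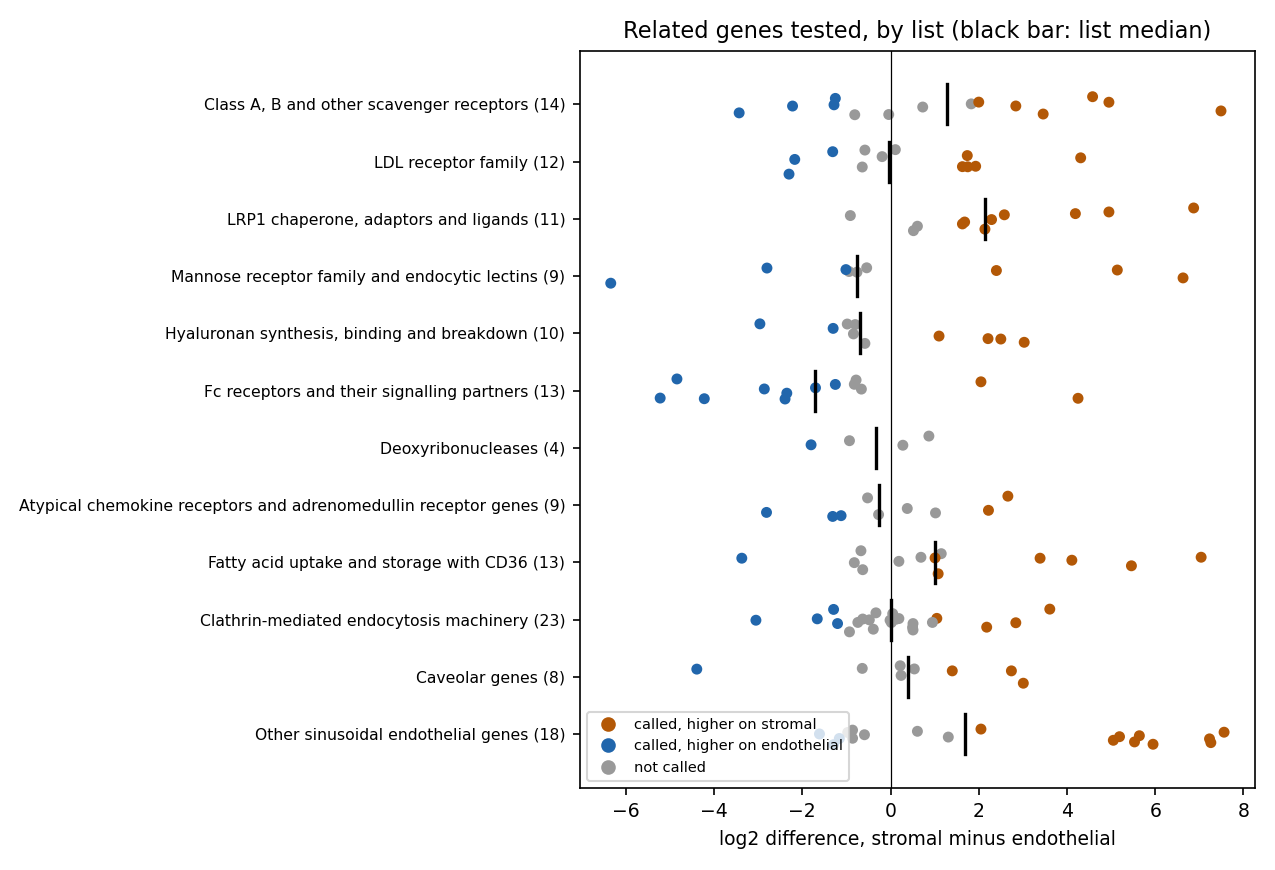
Log2 difference, stromal minus endothelial (horizontal axis), of the related genes tested in 12 lists (number tested in brackets); each point is a gene by its brightest probe set, coloured by its call, and black bars are list medians. Points lie on both sides of 0 in every list, with the list for LRP1 partners at a median of 2.14 and that for Fc receptors at -1.70.

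The genes most like the leading members were sought over the 7 arrays among 13994 other genes tested, by the root mean square difference of log2 values after each was centred on its own mean. For Lyve1 at 1429379_at they were Cmah (0.120), Nipal3 (0.245) and Slc16a12 (0.280). Cmah lay at 11.26, 11.59 and 11.29 in the endothelial and at 5.45 to 5.97 in the stromal samples. For Lrp1 at 1448655_at they were Rtn4rl1 (0.155), Dclk1 (0.185) and Jdp2 (0.227). These genes were chosen for their likeness on the same arrays, so their profiles are a description.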

How the data were processed

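Amplified RNA of 2 sorted bone marrow populations (4 and 3 arrays) was measured on Affymetrix Mouse Genome 430 2.0 arrays. The deposited values are log2 expression values from RMA in Expression Console 1.1, per the submitters' processing notes. RMA subtracts background, equalises quantiles and combines the probes of a set, so differences near the lower end are compressed. Which arrays were normalized together is not given in the sources used here. Depth does not apply to arrays. Their number limits the precision.

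Symbols came from a platform annotation: 34945 probe sets had 1 symbol, 932 several and 9160 none, and 64 were controls. limma 3.58.1 (lmFit, eBayes) in R 4.3.3 was fitted per probe set over all 29438 that passed the filter, with Benjamini-Hochberg adjustment, and tested on simulated data. List genes were represented by their probe set with the highest mean. The 10 genes, the 12 related and 8 cell type lists, the filter and 21 alternatives were chosen with earlier results of these data known, and 1 alternative after the values were seen. Of 177 related genes listed, 165 matched a symbol. Named related genes are the largest called differences of each list, at most 3 in the direction with more calls and 2 in the opposite one. Icam1 and Fcnb are named besides, for the sort antigen and for the shared list. Same-numbered arrays of the populations had correlations of deviations of -0.12, 0.00 and 0.12. So few arrays cannot exclude a pairing by number, and the main fit was unpaired. The neutrophil precursor list followed the number, at 9.63, 9.48 and 7.55 in stromal 1 to 3 and 11.26, 11.99 and 9.14 in endothelial 1 to 3. The reticular stroma list did not (13.15, 13.02 and 13.02 against 5.38, 6.60 and 6.04).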

Additional observations from a re-analysis of the deposited data

Results flagged for a closer look

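In 19 sets of 4 stromal arrays examined, 1 held an array far from the others by Dixon's criterion, which chance meets in about 1 of 20: Cd36 at 1450884_at lay at 3.24 on stromal 1, against 3.12 to 3.13 on the other stromal arrays. All 4 values are near the lower end of the arrays.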

How the results depend on the processing

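Lyve1 (both probe sets), Oit3 and Lrp1 at 1448655_at were called under all alternatives that gave them a test. The member probe sets called higher on the endothelial arrays, 5 as reported, were 8 with the adjusted p alone and 3 with treat, with a filter at the 60th percentile, without suffixed probe sets and with the hybridisation-control block. Those higher on the stromal arrays, 2 as reported, were 1 with that block and within the 5 arrays of like control level. Counted by gene, 1 and 2 genes were called with 1 probe set per gene and 1 and 3 with the mean of probe sets. Over all 29438 probe sets tested the calls, stromal then endothelial, were 7649 and 4292 as reported and 3581 and 1506 with treat. They were 9057 and 8579 with the adjusted p alone, and 6632 and 4216 with the hybridisation-control block. With the filter at the 60th percentile they were 6991 and 3153 of 20782 tested. Without suffixed probe sets they were 5742 and 3132 of 22458. They were 4319 and 2252 with 1 probe set per gene and 3386 and 1887 with the mean of probe sets, both over fewer features. Related genes higher on the endothelial arrays, 33 as reported, were 57 with the adjusted p alone and 16 with treat. Stab1 changed sign after cyclic loess (0.17) and lay between -0.22 and 0.10 with 1 array left out, and was -0.45 with the block. Gpr182 changed sign after cyclic loess (0.04) and was 0.19 with the block and within the 5 arrays. The cause was not tested. The replicate block left 4 member probe sets called on the endothelial and 2 on the stromal side, and 7043 and 4211 overall. Dim levels and 7 arrays limit what can be seen for Mrc1, Cd36 and Dnase1l3: after a repeated quantile normalization with no filter, chosen after seeing the data, their differences moved to -0.06 for Mrc1, -0.71 and -0.41 for Dnase1l3, and -0.61, -0.22 and -0.05 for Cd36.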
